A study of Drosophila melanogaster with 3 samples.

Results

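The neurexin and neuroligin genes of Drosophila melanogaster, Nrx-1, Nrx-IV, Nlg1, Nlg2, Nlg3 and Nlg4, were chosen by name, with earlier results of these data known, and are 6 of the 17684 annotated genes on the 6 chromosomes that carry called peaks. Binding of Bsh was profiled by Targeted DamID in L4 neurons of the lamina, the first optic neuropil, in 3 biological replicates of 1 group at 46–76 hr after pupa formation (APF). Bsh is a homeodomain transcription factor. It was fused to the bacterial methylase Dam, which marks GATC sequences near the places it reaches. In all replicates 31C06-Gal4 drove UAS-Bsh:Dam together with UAS-myristoylated-tdTomato, and tubP-Gal80[ts] held the driver off until the pupae were moved to the warmer temperature. Dam alone, from the FlyORF-TaDa line under the same driver, was the denominator of the deposited values. Laminae of many pupae were pooled for a sample, so a replicate is a pool. In the values used here cell type rests on the driver line. By imaging, the paper reports expression of this construct, over the same hours, in L4 neurons that carry the marker Ap. Peaks record binding and not transcription, so they cannot identify the cells. Of 6 lamina neuron marker genes, 2 (ap, a marker of L4, and svp, a marker of L1) had a peak score above 2.5 in every replicate. Under that rule 9.74% of all annotated genes passed. Of the 5 markers with a span of at least 10 kb, 2 passed, against 37.0% of all genes of at least 10 kb. The bsh gene itself had a peak in replicate 1 alone, with a score of 2.51, and bab2, erm and pdm3 had none.

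Neurexins are transmembrane proteins of the presynaptic side that bind neuroligins across the synaptic cleft, and the pair helps to align the release site with the receptors opposite. Neuroligins carry an extracellular domain related to acetylcholinesterase that lacks its catalytic activity. Nrx-1 is the fly orthologue of the vertebrate neurexins, whereas Nrx-IV is the relative of vertebrate Caspr proteins and builds the septate junctions of epithelia and glia. Nlg1 is known as a postsynaptic organiser of the larval neuromuscular junction, and Nlg2, Nlg3 and Nlg4 are its paralogues.

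The values are lists of called peaks, each with a score that the peak caller derived from Bsh:Dam signal over Dam signal on a log2 scale. How the score follows from the signal is not given in the sources used here, so it ranks peaks and is not read as a fold. A gene was listed when a peak lay within 1 kb of it. The depth behind a peak is unknown, since the lists carry no read counts. A missing line means that no peak was called, and not that binding was measured as 0. Replicates 1, 2 and 3 held 2834, 2838 and 2891 peaks with median scores of 2.98, 3.08 and 2.77, so scores ran lower in replicate 3. Peak positions are those of the peak lists, for which no genome build is given.

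The family split into 3 genes with a peak in every replicate (Nrx-1, Nrx-IV and Nlg3), 1 gene with a peak in 2 replicates (Nlg1), 1 with a peak in a lone replicate (Nlg4) and 1 with none (Nlg2). The first 3 genes also had a highest score above 2.5 in every replicate, the threshold applied to genes in the methods. Under the same rule 9.74% of all annotated genes passed, beside these 3 of 6. Long genes carry peaks more often, and the 6 genes span between 10472 bp (Nrx-IV) and 69154 bp (Nlg3). Of the 2033 annotated genes of at least 10 kb, a limit set after these lengths were seen, 37.0% passed the rule. The count of 3 of 6 is close to that share, which is not matched to the lengths of the 6 genes. With no threshold on the score, 3 of the 6 genes were listed in every replicate and 5 in at least 1, against 13.2% and 18.0% of all annotated genes. At a threshold of 3 none of the 6 passed in every replicate, since the scores in replicate 3 lay at or below 2.77. Of all annotated genes 6.22% passed at that threshold.

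**Figure D1:**
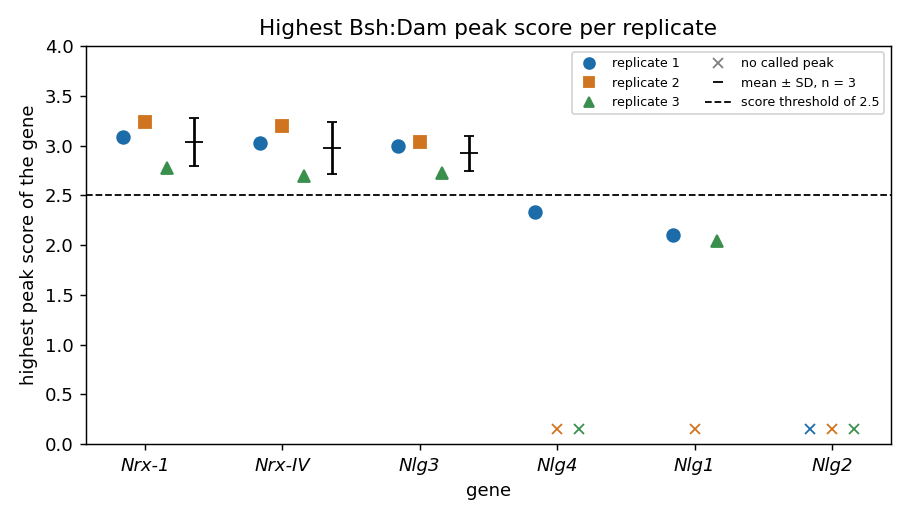
The highest peak score of each gene (y axis, no unit) is plotted for the 6 genes (x axis) in replicates 1, 2 and 3, with the mean and SD of 3 replicates beside the genes that have a peak in each, and crosses where no peak was called. Nrx-1, Nrx-IV and Nlg3 lie above the threshold of 2.5 in all 3 replicates, while the Nlg4 and Nlg1 points lie below it and Nlg2 has crosses only.

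Among the neurexins, Nrx-1 had a single peak, which scored 3.09 in replicate 1, 3.24 in replicate 2 and 2.77 in replicate 3 (mean 3.03 ± 0.24, SD, n = 3). Of the symbols listed in a replicate, 50.4%, 53.1% and 47.4% scored no higher, so Nrx-1 sat in the middle of the bound genes. The peak lies on 3R at 22468170–22470811 in replicates 1 and 3 and at 22468170–22470570 in replicate 2. It crosses one end of the annotated gene, and CG5377, whose role is not named here, lies within 1 kb of it and is listed with the same 3 scores. Which of the neighbouring genes the peak belongs to cannot be told apart from the lists. Its FDR was 0.0092, 0.00063 and 0.0022, the first of these just under the limit of 0.01 used for calling. With an FDR below 0.001 only the replicate 2 peak was left, and Nrx-1 no longer passed in every replicate.

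Nrx-IV also had a single peak, which scored 3.03 in replicate 1, 3.20 in replicate 2 and 2.69 in replicate 3 (mean 2.97 ± 0.26, SD, n = 3). It had the same borders in all replicates, on 3L at 12145800–12148158, which makes it 2359 bp long. In each replicate the FDR was far below the limit, at 3e-05, 3.6e-05 and 2.9e-05. This peak likewise crosses an end of its gene, and eIF3l, which encodes a subunit of the translation initiation factor eIF3, lies within 1 kb of it and has the same scores. Both neurexin genes thus had their peak at a gene end shared with a neighbour, and neither had a further called peak within its span.

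Nlg3 differed from the rest of the family in its number of peaks. It had 6, 7 and 7 peaks in replicates 1, 2 and 3, and all of them lie inside the gene. In the same lists 78.7%, 78.3% and 79.2% of symbols had 1 line, and 1.09%, 0.614% and 0.717% had as many lines as Nlg3 or more. Because Nlg3 is long, it was also set beside the 319 annotated genes of at least 50 kb. Those had a median of 2 peaks in every replicate, and 7.52%, 4.7% and 4.7% of them had as many peaks as Nlg3. The peaks covered 24.3%, 33.9% and 32.2% of the gene in replicates 1, 2 and 3.

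Along the gene the peaks fell at 7 positions, of which 6 were called in every replicate and 5 had identical borders each time. The first, at 7574051–7576816 on 3R, scored 3.0, 3.04 and 2.59 in replicates 1, 2 and 3. The fifth, at 7615350–7616985, scored 2.75, 2.87 and 2.72. These 2 peaks were the ones above 2.5 in all replicates, and the top score of the gene came from the first in replicates 1 and 2 but from the fifth in replicate 3. Nlg3 therefore has a highest score of 3.0, 3.04 and 2.72 (mean 2.92 ± 0.17, SD, n = 3) that does not trace back to the same peak each time.

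The second position, 7580330–7581734, scored 2.74, 2.82 and 2.41 in replicates 1, 2 and 3. The fourth, 7596173–7600178, scored 2.52, 2.62 and 2.08, and the seventh, 7630519–7634089, scored 2.62, 2.77 and 2.33. All 3 of these lay above 2.5 in replicates 1 and 2 and below it in replicate 3. The third position, 7583691–7590307, was the broadest at 6617 bp and had no called peak in replicate 1, with scores of 2.39 and 1.79 in replicates 2 and 3. The sixth scored 2.46, 2.55 and 2.46, and it is the only one near another gene, lncRNA:CR44332, which encodes a long non-coding RNA of no function known here and is listed with the same scores. In all, 5 of 6, 6 of 7 and 2 of 7 peaks of Nlg3 were above 2.5 in replicates 1, 2 and 3.

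The highest score at the locus belonged to a peak that the gene lists do not credit to Nlg3. It lies outside the annotated gene, at 3R 7566252–7567661 in every replicate, and scored 4.68, 4.91 and 4.57 in replicates 1, 2 and 3 (mean 4.72 ± 0.17, SD, n = 3). Among all peaks it ranked 12, 3 and 15. The closest annotated gene is Nlg3, 2.6 kb away, and the next is CG45545 at 14.0 kb, so no gene lies within the margin of 1 kb. Such peaks without a listed gene made up 8.72%, 8.46% and 8.3% of the peaks in replicates 1, 2 and 3, with median scores of 3.04, 3.12 and 2.84, and among them this peak ranked 3, 1 and 2. With a margin of 5 kb the mean highest score of Nlg3 was 4.72 in place of 2.92. Whether this peak acts on Nlg3 was not tested, and distance alone does not assign it. It was singled out after its values were seen.

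**Figure D2:**
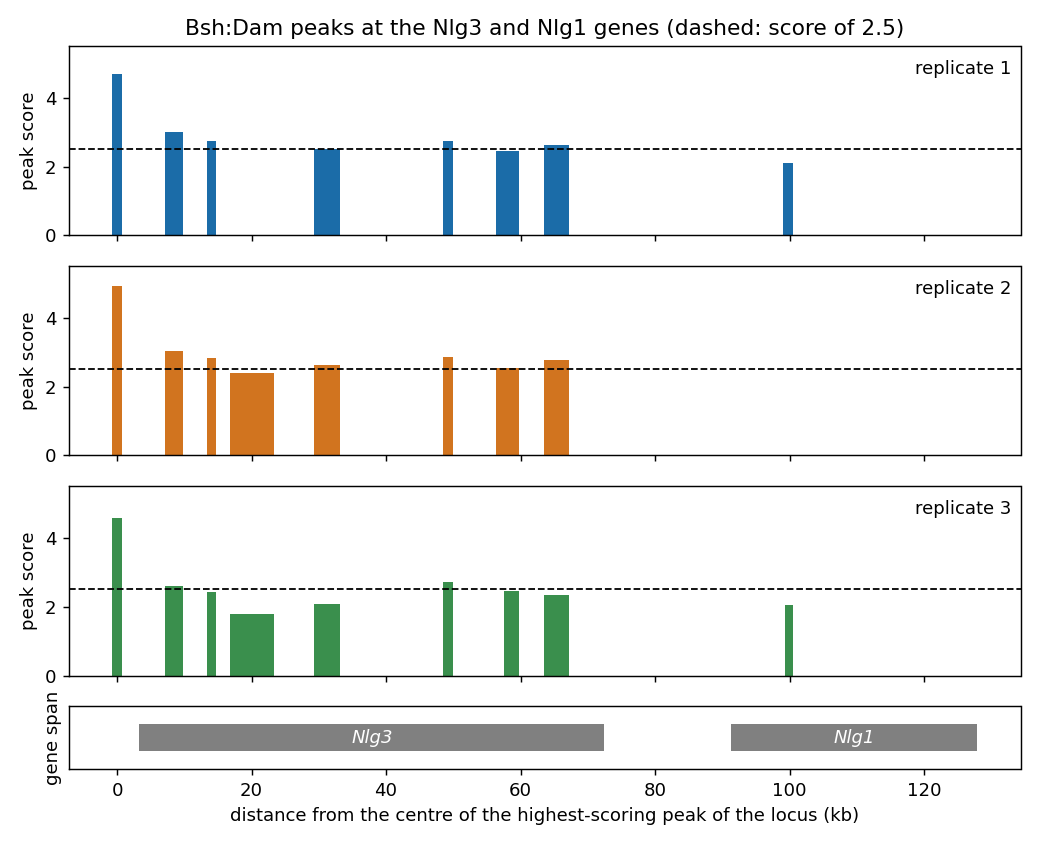
Peaks at the Nlg3 and Nlg1 genes are drawn to scale for replicates 1, 2 and 3, with the distance from the centre of the highest-scoring peak (kb, x axis) and the peak score (y axis, no unit). Gray bars in the lowest panel show the annotated gene spans. The peak at 0 scored 4.68, 4.91 and 4.57 and lies outside Nlg3, whereas the peaks over Nlg3 lie between 1.79 and 3.04.

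Nlg1 is the next gene along the chromosome after Nlg3, with 18.8 kb between them and no annotated gene or called peak in that gap. It had 1 peak inside the gene in replicate 1, with a score of 2.10, and 1 in replicate 3, with a score of 2.04. They overlap, at 7665915–7667487 and 7666222–7667487. No peak was called in replicate 2, where the nearest one was the seventh Nlg3 peak 24.2 kb away. Only 6.46% and 11.5% of the listed symbols scored no higher, which is near the low end of the lists, and their FDR was 0.004 and 0.0094. In replicates 1 and 3 every Nlg3 peak scored above the Nlg1 peak, except the broad peak at the third position in replicate 3.

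Nlg4 had a single peak, in replicate 1 alone, at 3R 20206822–20208615 with a score of 2.33 and an FDR of 0.0031. It lies inside the gene, and CG17199, whose role is not named here, is within 1 kb and has the same score. In replicates 2 and 3 the nearest peak was 16.2 kb from Nlg4, with scores of 2.19 and 2.11. Nlg2 had no line in any of the lists. The nearest peaks to it were 78.6 and 78.4 kb away in replicates 1 and 2, at nrv2, and 5.6 kb away in replicate 3, where a peak near Nha1 scored 1.86. The annotated spans of Nlg1, Nlg2 and Nlg4 are 36628, 31757 and 40665 bp, each longer than those of Nrx-1 (18458 bp) and Nrx-IV. Nlg3, the longest gene of the family, had the most peaks. Whether length bears on the peaks of these genes was not tested.

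**Figure D3:**
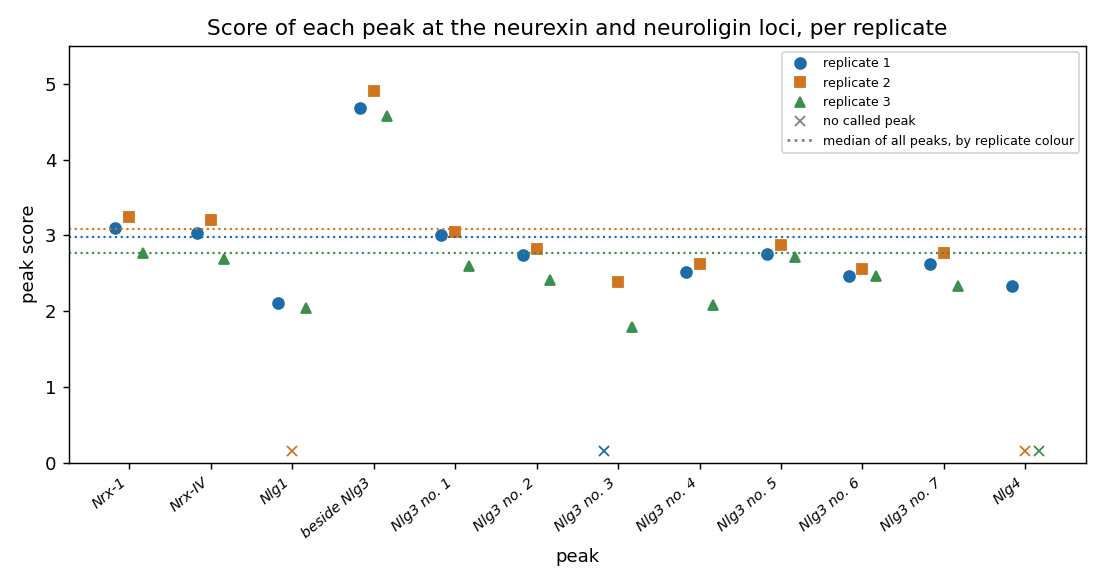
Each peak of the loci (x axis, Nlg3 peaks numbered along the gene) is shown with its score (y axis, no unit) in replicates 1, 2 and 3, crosses where a replicate had no called peak, and dotted lines at the median score of all peaks of that replicate (2.98, 3.08 and 2.77). The peak beside Nlg3 stands apart above 4.5, and where a peak was called in all 3 replicates the replicate 3 score is not above the others.

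The order of the genes with a peak in every replicate was Nrx-1, Nrx-IV and Nlg3, but their means lie within 1 SD of each other. Compared within replicates, Nrx-1 scored above Nrx-IV by 0.06, 0.04 and 0.08 (mean 0.06 ± 0.020, SD, n = 3) and above Nlg3 by 0.09, 0.20 and 0.05 (mean 0.11 ± 0.078). Nrx-IV minus Nlg3 was 0.03, 0.16 and -0.03 (mean 0.05 ± 0.097). By a two-sided exact permutation test over the 3 replicates the p was 0.25, 0.25 and 0.75 for these 3 pairs, with Benjamini-Hochberg adjusted values of 0.375, 0.375 and 0.75. With 3 pairs the exact test cannot go below p = 0.25, so no order among the 3 genes passed a test.

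Replicate 3 gave lower scores at the Nrx-1, Nrx-IV and Nlg3 loci. Of the 9 positions called in every replicate, 6 lie inside Nlg3, and the peak beside Nlg3 is among the rest. Nlg1, Nlg2 and Nlg4 have no such position. At these 9 the replicate 3 score minus the mean of replicates 1 and 2 had a median of -0.37 and was below 0 at every one. For comparison, 2359 replicate 1 peaks had 1 overlapping peak in each other replicate. There the same difference had a median of -0.20 and quartiles of -0.35 and -0.04, and 79.4% were below 0. Most peaks of the library were thus lower in replicate 3, and not those of this family alone. The median of the 9 positions lay below the lower of these quartiles. Whether these loci moved further than other peaks was not tested. The fifth and sixth Nlg3 peaks moved least.

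For Nrx-1, Nrx-IV and Nlg3, the genes with the most similar scores were found by the sum of absolute differences over the 3 replicates. The search was among 2320 genes listed in each replicate. Nlg1, Nlg2 and Nlg4 lack a score in at least 1 replicate and were not compared. For Nrx-1 they were Ack, a tyrosine kinase, and vas, an RNA helicase of the germ line, with sums of 0.08 and 0.09. For Nrx-IV the closest was aop, an ETS domain repressor, at 0.07, and CG30082, whose role is not named here, was 1 of 3 genes tied at 0.10. Nlg3 was closest to lncRNA:CR45109 at 0.03 and to RpL10Aa, a ribosomal protein gene, at 0.04 with 1 further gene tied. Likeness here means a similar level in 3 libraries of 1 condition.

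Proteins that bind or act with Nrx-1 and the neuroligins at the fly synapse were counted next. Of 12 such genes, 6 had a highest score above 2.5 in every replicate, against 9.74% of all annotated genes. Of the 7 with a span of at least 10 kb, 5 did, against 37.0% of all genes of at least 10 kb. Those 7 span 33962 bp (Syd-1) to 145447 bp (Lar), and the 37.0% is not matched to their length. The highest were Syd-1 (listed as RhoGAP100F), an active zone organiser that binds Nrx-1, which scored 4.25 in replicate 1, 4.58 in replicate 2 and 4.55 in replicate 3 (mean 4.46 ± 0.18, SD, n = 3), and Spn, the fly spinophilin, with 4.39, 4.47 and 4.32 (mean 4.39 ± 0.075). In every replicate both lie above the highest listed score of every neurexin and neuroligin gene.

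The other partner genes past the threshold were metro and dlg1, scaffolds of the membrane-associated guanylate kinase family, brp, the core protein of the active zone, and X11Lbeta, a Mint adaptor. Their means were 3.66, 3.38, 3.28 and 3.15. Lar, a receptor tyrosine phosphatase of the presynaptic terminal, scored 3.39, 3.67 and 2.30 in replicates 1, 2 and 3, so it failed through replicate 3 and the count was 7 without that replicate. Liprin-alpha, which binds Lar, scored 2.42, 2.65 and 2.32, and CASK, a scaffold that binds the neurexin tail, had no peak in replicate 1 and scores of 2.16 and 1.99 in replicates 2 and 3. No peak was listed for X11L, veli or wit, the last of which is a BMP receptor, in any replicate.

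Of 14 septate junction genes and Nrx-IV partners, 3 (21.4%) passed in every replicate, against the same 9.74% of all genes. Of the 5 with a span of at least 10 kb, 1 passed, against 37.0% of all genes of that size. The 3 genes of the list that passed were nrv2 and Atpalpha, subunits of the sodium pump, and the scaffold gene vari. They had means of 4.17 ± 0.19, 4.03 ± 0.125 and 3.97 ± 0.33 (SD, n = 3). Atpalpha is the one among them with a span of at least 10 kb. The next 3 by mean score were Lac, which scored 3.11, 2.34 and 2.65 in replicates 1, 2 and 3, Nrg, a neuroglian adhesion molecule with a mean of 2.25, and Gli, which encodes gliotactin, a relative of the neuroligins, with 2.12, 2.54 and 1.95. Without replicate 2 the count was 4, through Lac. No peak was listed for 7 genes, among them cora and Cont, whose products form a complex with Nrx-IV at the junction, and wrapper, which encodes a glial ligand of Nrx-IV. The rest of these 7 were sinu, Mcr, pck and kune.

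**Figure D4:**
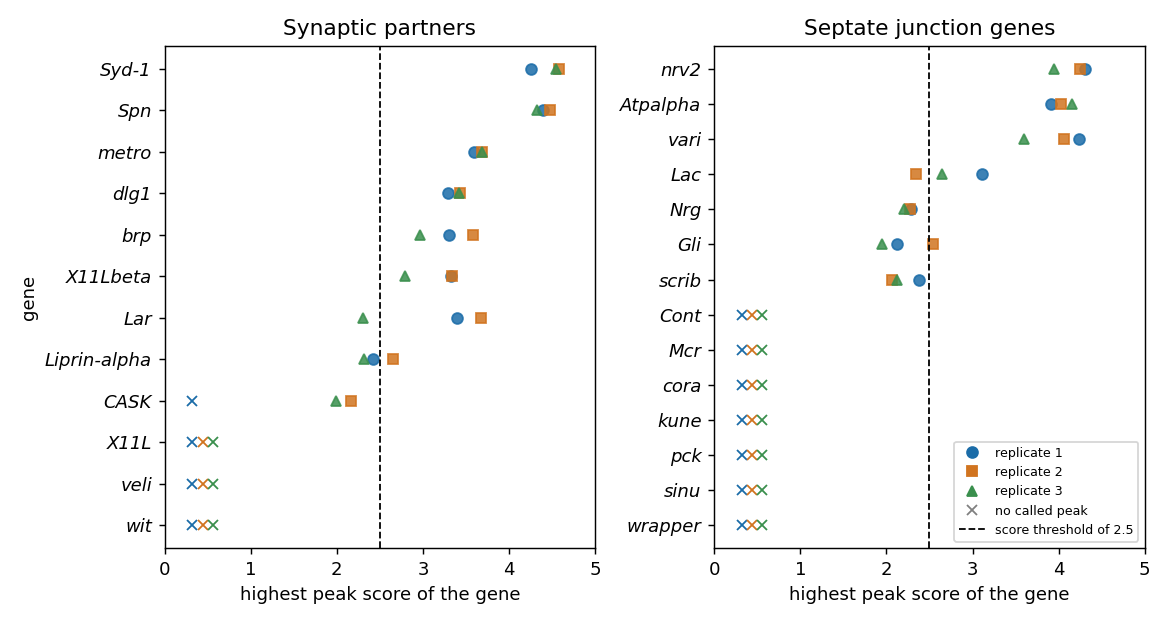
The highest peak score of each gene (x axis, no unit) in replicates 1, 2 and 3 is shown for 12 synaptic partner genes and for 14 septate junction genes (y axes, ordered by mean score), with crosses for no called peak and a dashed line at 2.5. On the synaptic side 6 genes have all 3 points past the line and 3 have crosses only. On the septate junction side the numbers are 3 and 7. Of all annotated genes, 9.74% passed in every replicate. The lists differ in gene length, with 7 of the 12 and 5 of the 14 genes spanning at least 10 kb, so the 2 sides are not matched.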

How the data were processed

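DNA from 3 Bsh:Dam L4 samples was analysed as called peaks. The deposited values are scores of peaks and of genes. Per the labels and the methods, the authors checked reads with FastQC 0.11.9, set Bsh:Dam signal over Dam signal on a log2 scale in damidseq_pipeline, called peaks per replicate with find_peaks (FDR below 0.01, min_quant 0.9) and listed genes within 1 kb with peaks2genes. Bowtie2 is listed among the authors' software. The genome build is not given in the sources used here.

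Scores were read from both kinds of list with Python 3.11.15, pandas 2.3.3, numpy 2.4.6 and scipy 1.17.1, and plotted with matplotlib 3.10.9. A gene was counted where its best score passed 2.5 in every one of the 3 replicates. Gene names, lengths and neighbours were taken from RefSeq (assembly Release 6 plus ISO1 MT). Of 3129, 3093 and 3206 symbols, 3110, 3057 and 3166 matched a gene, after a transcript suffix carried by some non-coding genes was removed. For 99.9% of the matched lines of each replicate a peak of that score lay within 1 kb of the gene, against 7.09% to 8.11% after a shift of 50000 bp. Assignment of peaks to genes was tested on simulated data, with genes far apart and at most 1 planted peak each. That test did not cover neighbouring genes that share a peak. The main counts used the gene lists of the authors.

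All 6 genes are named, with neighbours within 1 kb, and up to 6 genes of each list by mean score with those never listed. The 2 most alike genes are named for each of the 3 genes with a peak in every replicate. The others of the synaptic list, and the gene next to the peak beside Nlg3, were named after their values were seen. The genes and lists were chosen with earlier results of these data known. Alternatives were other thresholds, replicates, margins and FDR limits. Protein and promoter sequences and Dam libraries were not analysed here.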

Additional observations from a re-analysis of the deposited data

How the results depend on the processing

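The count of neurexin and neuroligin genes stayed at 3 for any listed peak in all replicates, for 2.5 in at least 2 replicates or at least 1, without each replicate in turn (3 to 3), and for gene spans with no margin, 1 kb or 5 kb. It was 0 at a score above 3, 2 at an FDR below 0.001, and 4 or 5 for any peak in at least 2 or at least 1 replicate. The share of all annotated genes, 9.74%, was 6.22% at a score above 3 and 7.57% at an FDR below 0.001. It was 11.8% and 13.6% at 2.5 in at least 2 and at least 1 replicate (9.95% to 11.4% without a replicate). For any peak it was 13.2% in all replicates, 15.3% in at least 2 and 18.0% in at least 1. With gene spans it was 7.53% with no margin, 9.89% within 1 kb and 18.3% within 5 kb. The septate junction count of 3 was 7 for any listed peak, in all 3, at least 2 or at least 1 replicate, and 5 at 2.5 in at least 1 replicate. The synaptic partner count of 6 lay between 4 (score above 3) and 9 (any peak in at least 2 or at least 1 replicate) under every alternative. Beside the counts of both lists stand the shares of all genes given above for the same rules. The difference between Nrx-IV and Nlg3 ranged from 0.00 to 0.10 without a replicate and was 0.39 with the mean over peaks, and that between Nrx-1 and Nlg3 ranged from 0.07 to 0.15 and was 0.45. Of 62 values for single genes, 56 did not move beyond the spread between replicates. The Nlg4 score came from 1 replicate and had no such spread. The peak counts of Nrx-1 and Nrx-IV had a spread of 0. Of all 126 values 0 reversed, but only the differences between genes could do so. Counts, shares and peak scores had no sign to change. Among the differences, Nrx-IV minus Nlg3 fell to 0.00 without replicate 2. The rules that combine any peak with fewer replicates, and the span with 1 kb, were chosen after seeing the data. No paired analysis between conditions could be made, since all samples form 1 group, and replicates paired only the genes compared within them. Leaving out replicate 1 gives no score for Nlg4, and an FDR below 0.001 none for Nlg1 and Nlg4. The depth is unknown, and weak binding below the calling limits is not in the lists.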
